A study of Mus musculus with 6 samples.

Results

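Monocyte and recruited macrophage genes were read in mouse liver as 10 named genes, Cx3cr1, Ly6c1, Ly6c2, Ms4a7, Ccr2, Lyz1, Lyz2, Csf1r, Adgre1 and Spn, out of 37074 gene names on the array. The genes were taken by name, with every probe that the array design gives them, which came to 18 of 56605 probes. All 3 sEV livers came from nude mice that received 10 tail vein injections of small extracellular vesicles (sEVs, membrane particles that cells release), 20 µg each, over 21 days. SW620, an established cell line from a human colorectal tumour, was the source of the vesicles. The 3 Control livers came from nude mice given PBS, the injection buffer, 10 times over the same 21 days. Both groups share the nude background, in which the thymus fails to form and T cells are scarce, and no age was given. Each group held 5 mice, and 3 livers per group were arrayed, with random picking stated for the sEV group only. The series title names macrophage polarization and a pre-metastatic niche in the liver. The labels do not say whether the 3 Control livers came from separate mice, so the p-values measure the spread between these samples, which may in part be technical.

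Monocytes leave the bone marrow through the chemokine receptor CCR2 and need the growth factor receptor CSF1R to survive. Classical monocytes carry high Ly6C and CCR2, while non-classical monocytes, which patrol vessels, carry high CX3CR1 and CD43 (the Spn product) and low Ly6C. Kupffer cells are the resident macrophages of the liver. They carry F4/80 (the Adgre1 product) and CSF1R and little CX3CR1, and monocytes that enter the liver can mature into macrophages. In whole liver RNA, fewer cells of a type and less RNA per cell cannot be told apart.

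The Ly6c1 and Ly6c2 probes needed a closer reading, because the genes are near-identical neighbours on chromosome 15 and 1 of the 2 Ly6c1 probes is almost the Ly6c2 probe. Over the 60 bases, counted from 1 at the 5′ end, the brighter Ly6c1 probe differed from the Ly6c2 probe at 3 positions, G8C, A57G and C60T. The design places the brighter Ly6c1 probe at chr15:74875495-74875554 and the Ly6c2 probe at chr15:74938637-74938695, both on the minus strand of mouse build mm9. Bases 31 to 60 of both follow, with the differing bases in capitals.
Ly6c1 brighter probe, bases 31 to 60: tctggggtcctgcagggttcccatgtAtgC
Ly6c2 probe, bases 31 to 60: tctggggtcctgcagggttcccatgtGtgT
The dimmer Ly6c1 probe lies elsewhere in the gene, at chr15:74877785-74877844 on the same strand, and is shown because it gave the opposite result.
Ly6c1 dimmer probe, bases 1 to 60: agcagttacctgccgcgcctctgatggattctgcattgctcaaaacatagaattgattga
The nearest other probe on the array differed from it at 30 of 60 positions. For the other members the nearest probe, compared base by base without shifting, differed at 23 or more positions.

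Of 59305 spots that were not controls, between 49.9% and 54.7% were well above background on each array. All 6 arrays lay on 1 slide with 1 scan, with sEV 1 and the 3 Control arrays in slide row 1 and the other sEV arrays in row 2. Signals are given below relative to the 75th percentile of their own array, either as a percent of it or as log2 of the ratio, and levels are compared between arrays and not between probes. Hepatocyte markers checked the tissue: 7 of the 8 listed were measured, each of them over the background mark on every array, and the eighth, Tf, is not a gene name on this array.

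Vesicle-injected livers had a mixed change in these genes. Cx3cr1 was lower, and so were the near-identical Ly6c2 and brighter Ly6c1 probes, whose values cannot be assigned to 1 gene. Ms4a7, Ccr2, 1 Spn probe and the dimmer Ly6c1 probe were higher. Csf1r, Adgre1, Lyz1 and Lyz2 did not pass the test. Of the 18 probes, 16 were well above background on all 6 arrays, covering all 10 genes, and the other two, for Adgre1 and Spn, were so on 0 arrays. At an adjusted p of 0.05 (limma, Benjamini-Hochberg over 28766 probes), 5 of the 16 member probes rose and 4 fell, beside 14% of all probes called, 7.52% higher and 6.53% lower. The groups did not overlap for 10 of the 16, against 38.8% of all probes. At an unadjusted p under 0.05 the count was 13 of 16, against 31.6% of all probes. The median log2 fold change of the 16 was 0.34, against 0.04 over all probes tested, and 12 of the 16 were positive, against 54.7% of all probes. Several of the 16 read the same gene, so these probe counts are not counts of independent genes. By the brightest probe of each of the 10 genes, 2 rose and 3 fell, beside 7.95% of all genes higher and 7.25% lower. Ly6c1 and Ly6c2, read by near-identical probes, are among the 3. The median over the 10 genes was 0.27, against 0.03 over all genes.

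**Figure D1:**
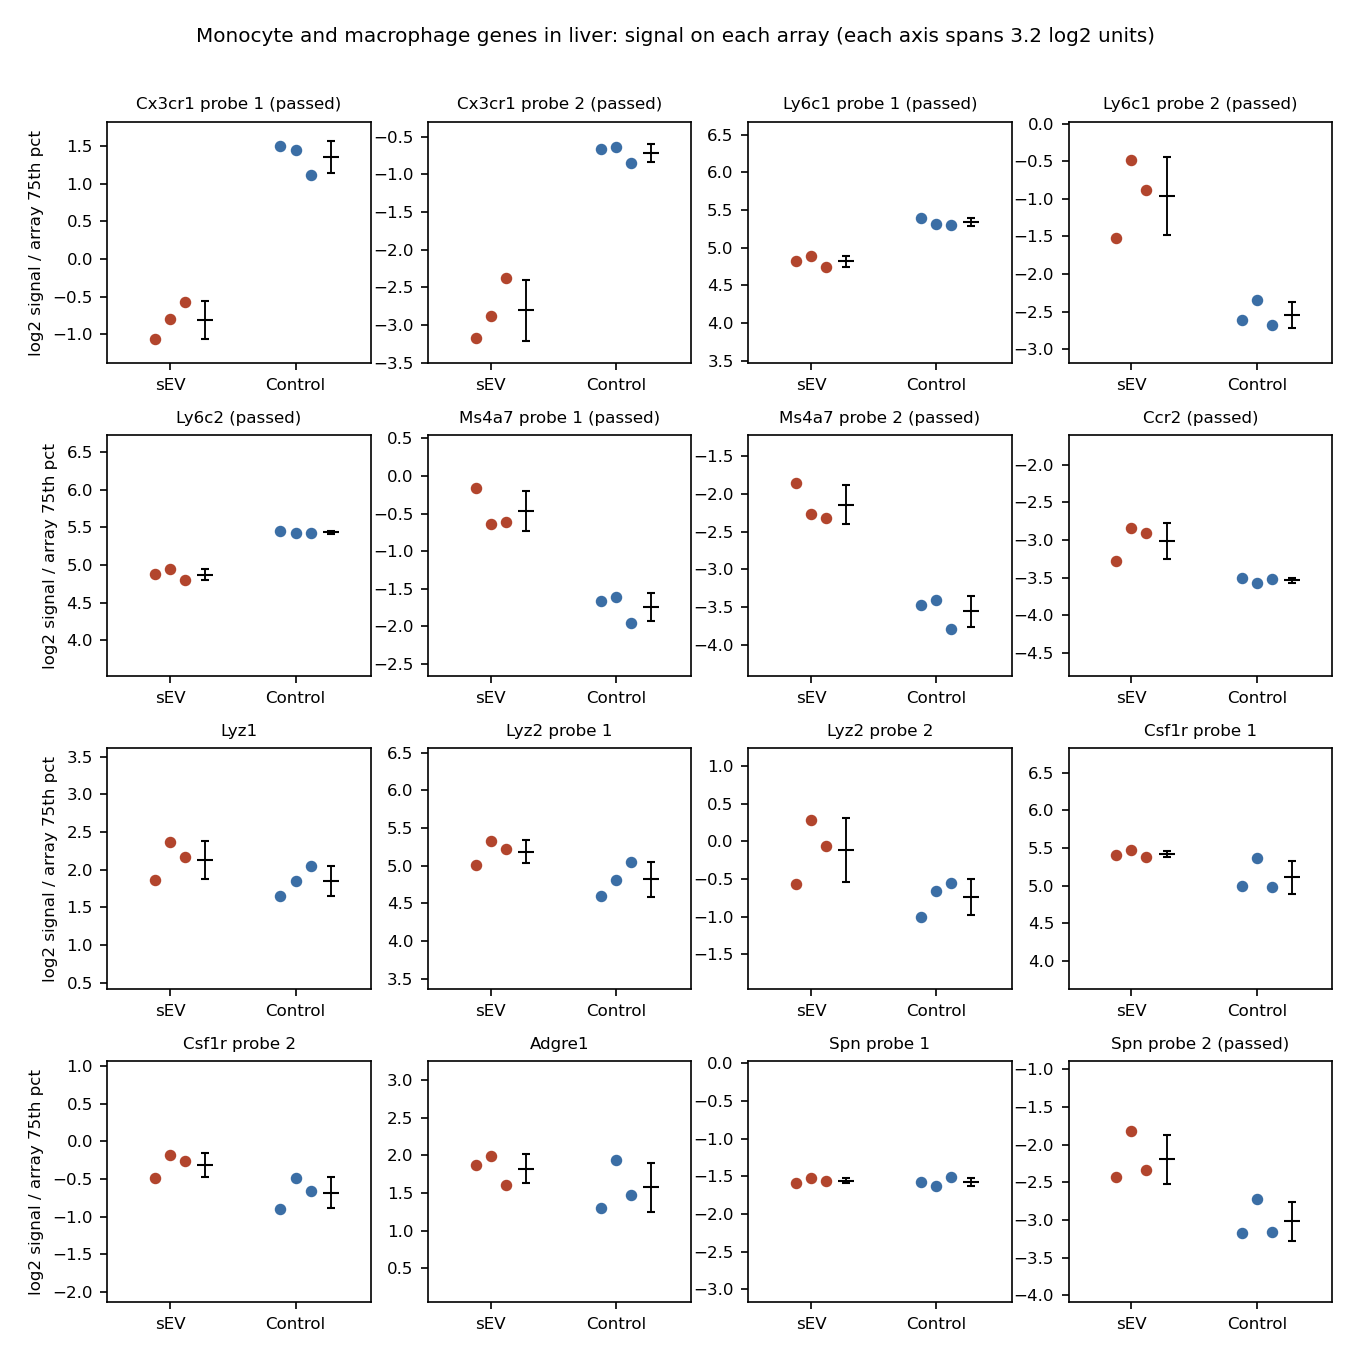
Signal of the 16 member probes that were well above background, as log2 of the ratio to the array's 75th percentile, with 1 point per liver, sEV left and Control right, and the group mean ± SD (n = 3) as a black bar. Probes of 1 gene are numbered from the brightest. Both Cx3cr1 probes are lower and both Ms4a7 probes higher in all sEV livers than in any Control liver.

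**Figure D2:**
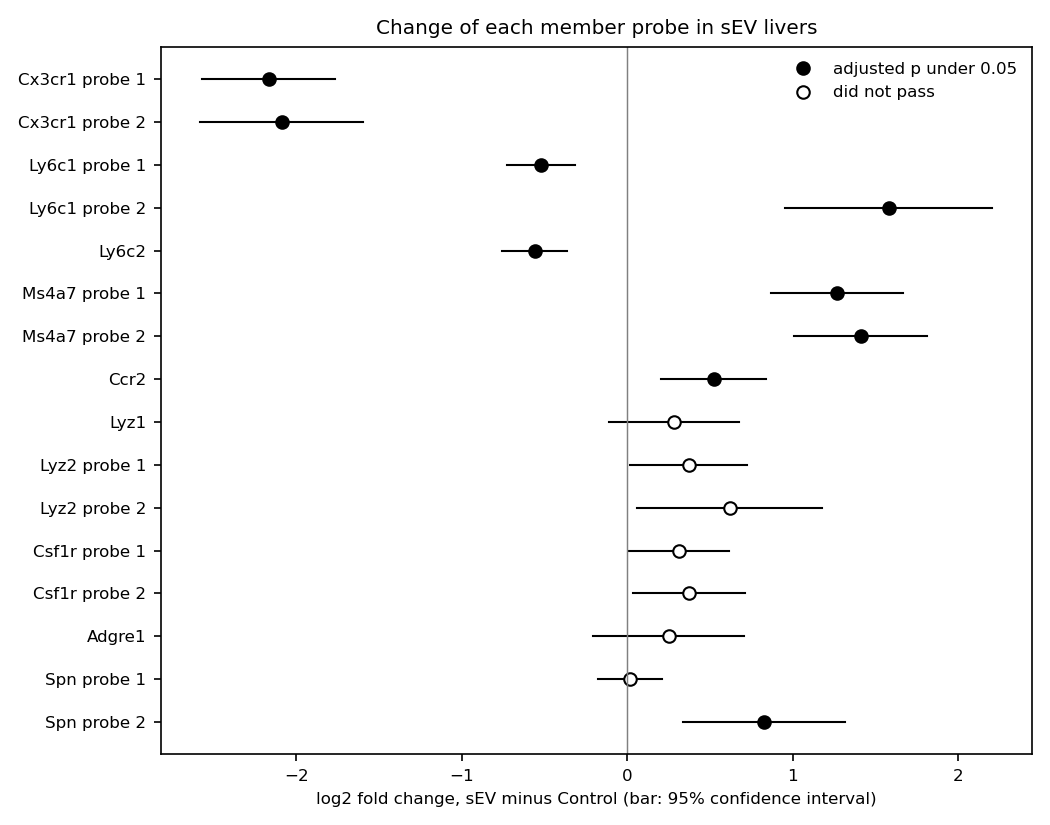
Log2 fold change, sEV minus Control, of the same 16 probes with 95% confidence intervals from limma, where filled points passed an adjusted p of 0.05. The 2 Cx3cr1 probes lie near -2, and the 2 Ly6c1 probes lie on opposite sides of 0.

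Cx3cr1, the fractalkine receptor that marks patrolling monocytes, had the largest change of the 10 genes. On its brighter probe the relative signal was 47.7%, 57.6% and 67.4% in sEV livers, against 284%, 273% and 216% in Control livers. On the log2 scale that was -0.81 ± 0.25 in sEV livers and 1.36 ± 0.21 in Control livers (SD, n = 3 each). Every sEV liver lay below every Control liver. The log2 fold change was -2.17 ± 0.17 (SE, limma adjusted p = 0.00143), which is 4.49-fold lower. Its second probe had a relative signal of 11.1%, 13.6% and 19.3% in sEV livers, against 63.0%, 64.1% and 55.4% in Control livers. That probe fell by 2.09 ± 0.20 on the log2 scale (SE, limma adjusted p = 0.00340). Both probes therefore gave the same direction and a similar size, and the groups overlapped on neither. Within slide row 1, where sEV 1 stood against the 3 Control arrays, the brighter probe was at -2.42, a value that rests on 1 sEV array and on the spread of the Control arrays alone. Under normexp background correction the second probe was at -1.29 (adjusted p = 0.000644), smaller than with the main values, and still past the threshold.

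Its ligand Cx3cl1, a membrane-bound chemokine of endothelium, did not pass, at a log2 fold change of 0.10 with a 95% interval of -0.40 to 0.60. The 5 named genes most like Cx3cr1 over the 6 arrays were Ube2ql1, Gpx7, C1qtnf6, Itih2 and Hist2h2be, with Pearson correlations between 0.997 and 0.999. Those correlations are a description of 6 arrays that share the 2 groups. Ube2ql1 had a log2 fold change of -2.35 and Itih2 of -0.17.

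Ccr2, the receptor that draws classical monocytes out of marrow, was near the lower limit of the array. Its relative signal was 10.3%, 13.9% and 13.3% in sEV livers, against 8.78%, 8.42% and 8.72% in Control livers. The groups did not overlap, and the sEV liver nearest to the Control livers was sEV 1, the one in their slide row. On the log2 scale Ccr2 stood at -3.01 ± 0.24 in sEV livers and -3.53 ± 0.03 in Control livers (SD, n = 3 each), where the lowest signals well above background were between -4.71 and -3.94. The log2 fold change was 0.52 ± 0.13 (SE, limma adjusted p = 0.0473), 1.44-fold higher and just inside the threshold. With slide row as a block, which leaves sEV 1 against the Control arrays, it was 0.25 (adjusted p = 0.282), the call also ended under median scaling (0.47, adjusted p = 0.0599), and it ended without any 1 array other than sEV 1, with adjusted p between 0.119 and 0.130. Under normexp the log2 fold change was 0.27 (adjusted p = 0.0384).

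Of Ccl2, Ccl7 and Ccl12, ligands of CCR2, only Ccl2 was measured. Ccl2, the main ligand, had a log2 fold change of -0.59 ± 0.20 (SE) and did not pass (limma adjusted p = 0.103). Ccl7 and Ccl12 had no probe that passed the filter on dim spots. Ccl8, a chemokine of monocytes and other leukocytes, stayed under the background mark on all 3 Control arrays and was at least 2.65-fold higher in sEV livers. It passed the filter on dim spots through the sEV arrays alone, so its call is no support. For such a bound the Control value of an array is its lowest signal among probes well above background, or the probe's own signal where that is higher. Among the other receptors of monocytes, Csf2rb, the shared beta chain of the GM-CSF, IL-3 and IL-5 receptors, rose by 0.65 ± 0.12 (SE, limma adjusted p = 0.0213).

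Csf1r, the receptor that macrophages and their precursors depend on, was slightly higher without passing. Its brighter probe had a relative signal of 4262%, 4433% and 4180% in sEV livers, against 3186%, 4110% and 3151% in Control livers. The lowest sEV liver stood just above Control 2, the highest Control liver. The log2 fold change was 0.31 ± 0.13 (SE, limma adjusted p = 0.147), with a 95% interval of 0.01 to 0.61. Its second probe was at 71.4%, 88.3% and 83.4% in sEV livers, against 53.7%, 71.6% and 63.1% in Control livers. That gave 0.37 ± 0.14 (SE, limma adjusted p = 0.129), with overlapping groups and an interval of 0.03 to 0.71. Of the ligands of CSF1R, Il34 rose by 0.97 ± 0.19 (SE, limma adjusted p = 0.0243), and Csf1 was at -0.14 with an interval of -0.38 to 0.11.

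Adgre1, which encodes the macrophage antigen F4/80, also did not pass. Its measured probe was at 367%, 397% and 306% of the 75th percentile in sEV livers, against 248%, 385% and 278% in Control livers. The groups overlapped through Control 2, which was the highest Control liver for both Csf1r probes as well. The log2 fold change was 0.25 ± 0.19 (SE, limma adjusted p = 0.411), with an interval of -0.20 to 0.70. Its other probe was below that mark on all 6 arrays.

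Ms4a7, a tetraspanning membrane protein of mature macrophages, was higher in every sEV liver. The brighter probe was at 89.3%, 64.5% and 65.4% in sEV livers, against 31.7%, 32.9% and 25.8% in Control livers. The log2 means were -0.47 ± 0.27 in sEV livers and -1.74 ± 0.19 in Control livers (SD, n = 3 each), and the groups lay well apart. Ms4a7 rose by 1.27 ± 0.17 on the log2 scale (SE, limma adjusted p = 0.00800), 2.41-fold. On the second probe, the relative signal was 27.8%, 20.8% and 20.0% in sEV livers, against 9.01%, 9.45% and 7.23% in Control livers. That probe rose by 1.41 ± 0.17 (SE, limma adjusted p = 0.00592). On both, sEV 1 was the highest liver, and within slide row 1 the brighter probe was at 1.58, which again rests on that 1 sEV array. Under normexp the second, dimmer probe was at 0.71 (adjusted p = 0.00320), smaller than with the main values.

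The Ms4a genes lie in a cluster, and that family as a whole was taken up after its values were seen, so no test is given for it here. Ms4a4a, Ms4a6c, Ms4a6d and Ms4a1 also belong to the gene lists counted further on. Of 19 Ms4a names on the array 12 were measured, Ms4a7 included. By the brightest probe of each, 10 of the 12 had positive and 2 negative log2 fold changes, which is a description only. Over all probes, and not 1 per gene, 54.7% were positive. Ms4a4a and Ms4a1 passed the filter on dim spots through 1 group alone. The 2 Ms4a4b probes differed in sign, at 0.40 on the brighter and -0.10 on the dimmer, and neither passed. Ms4a4a was the most changed, at -2.09, -2.40 and -1.83 on the log2 scale in sEV livers, against -5.02, -5.56 and -5.19 in Control livers. No Control array had it well above background, and it was at least 5.34-fold higher. Ms4a3, a gene of granulocyte and monocyte precursors, was at -1.26, -0.22 and -1.27 in sEV livers, against -3.06, -2.37 and -3.56 in Control livers, with sEV 2 and Control 2 the highest of their groups. Ms4a6d and Ms4a6c, both macrophage genes, had log2 fold changes of 1.36 and 1.24, Ms4a8a had 1.64 and Ms4a4c had 0.85. Ms4a4d (-0.03) hardly differed, and Ms4a1, the B cell antigen CD20, went the other way. It was at -6.09, -4.64 and -4.88 in sEV livers, against -3.56, -3.06 and -2.88 in Control livers, and at least 2.04-fold lower, since no sEV array had it well above background.

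**Figure D3:**
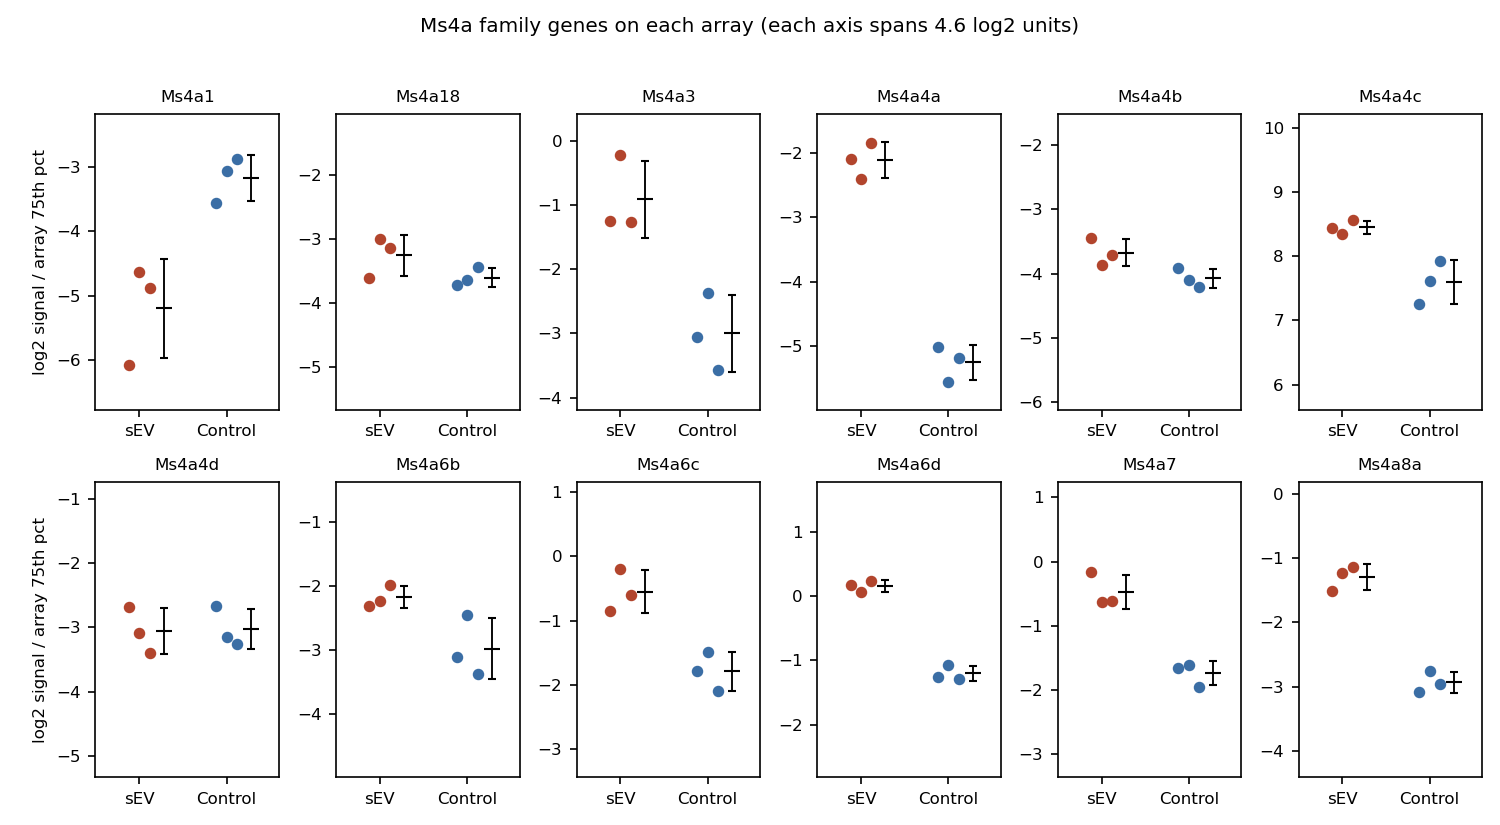
Log2 ratio of signal to the array's 75th percentile for the 12 measured Ms4a genes, with 1 point per liver, sEV left and Control right, and the mean ± SD (n = 3) as a black bar. Ms4a3, Ms4a4a, Ms4a4b, Ms4a4c, Ms4a6b, Ms4a6c, Ms4a6d, Ms4a7 and Ms4a8a are higher in all sEV livers than in any Control liver. Ms4a4d and Ms4a18 overlap, and Ms4a1 is lower.

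The 5 named genes most like Ms4a7 over the 6 arrays were Abca6, Icam4, Adam33, Aoah and Syt3, with Pearson correlations between 0.992 and 0.994. All 5 were higher in sEV livers, with log2 fold changes between 0.57 for Abca6 and 1.48 for Syt3. As for Cx3cr1, the correlations describe 6 arrays that share the 2 groups.

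Ly6c1 and Ly6c2 encode the small surface proteins that the Ly6C antibody reads, on classical monocytes and, for Ly6c1, on endothelium too. The near-identical bright probes moved alike. Ly6c2 had a relative signal of 2937%, 3080% and 2780% in sEV livers, against 4375%, 4307% and 4278% in Control livers. Brighter Ly6c1 probe values were 2841%, 2956% and 2676% in sEV livers, against 4209%, 3998% and 3954% in Control livers. Within each group the 3 livers were close together, and the groups stood apart on both probes. Ly6c2 fell by 0.56 ± 0.08 (SE, limma adjusted p = 0.0113) and Ly6c1, on that probe, by 0.52 ± 0.08 (SE, limma adjusted p = 0.0150). Since these probes share all but 3 of 60 bases (shown above), their values cannot be assigned to 1 gene or counted as independent.

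The dimmer Ly6c1 probe gave the opposite direction. Its relative signal was 34.8%, 71.4% and 54.2% in sEV livers, against 16.4%, 19.7% and 15.7% in Control livers. The log2 means were -0.96 ± 0.52 in sEV livers and -2.54 ± 0.17 in Control livers (SD, n = 3 each), and the sEV livers were spread over a wider range. It rose by 1.58 ± 0.26 (SE, limma adjusted p = 0.0157), 2.99-fold. What separates the probes was not tested, and no direction for Ly6c1 as a gene follows from them. With slide row as a block, the calls of all 3 Ly6c probes ended, at log2 fold changes of 1.02 for the dimmer Ly6c1 probe (adjusted p = 0.0784), -0.51 for the brighter one (0.104) and -0.56 for Ly6c2 (0.0856). The dimmer probe's call also ended without sEV 3 (adjusted p = 0.0509), without Control 1 (0.0598) and without Control 3 (0.0509), and the brighter probe's without sEV 3 (0.0519) and without Control 1 (0.0526).

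**Figure D4:**
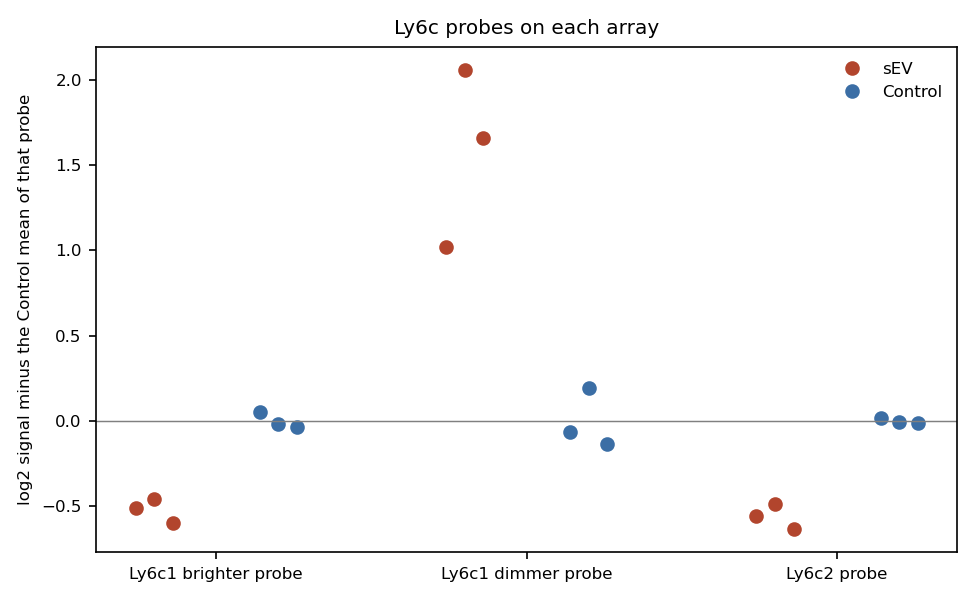
Log2 signal of the 3 Ly6c probes on each array, minus the Control mean of the same probe, with sEV points left of Control points. On the brighter Ly6c1 probe and the Ly6c2 probe the sEV livers lie about 0.5 below the Control mean, and on the dimmer Ly6c1 probe they lie 1.0 or more above it.

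Endothelial cells are another source of Ly6c1 in liver. Of 12 listed endothelial markers, 11 were measured and 0 passed by limma's adjusted p, beside 15.2% of all genes called, with a median log2 fold change of -0.09. At an unadjusted p under 0.05 there was 1, Emcn. Among them Emcn, a sinusoidal and venous glycoprotein, was at -0.47 and Kdr, a receptor for vascular growth factor, at -0.32, while Lyve1, a hyaluronan receptor, was at 0.22 and Pecam1, an adhesion molecule, at 0.21. Their summed relative signal was 3837% to 4854% in sEV livers and 3909% to 5521% in Control livers, ranges that overlap, and Sele was not well above background on enough arrays. The part of these cells in the Ly6c values was not tested.

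Lyz1 and Lyz2 encode lysozyme, which monocytes, macrophages and neutrophils make, and lie side by side on chromosome 10 as near-identical copies, so probes may read both. Lyz2 had a relative signal of 3234%, 4014% and 3743% in sEV livers, against 2414%, 2809% and 3314% in Control livers, on its brighter probe. Its second probe was at 67.5%, 121% and 95.6% in sEV livers, against 49.8%, 63.4% and 68.2% in Control livers. Lyz1 was at 364%, 516% and 449% in sEV livers, against 314%, 361% and 412% in Control livers. Groups overlapped on all 3 probes, because sEV 1 was below Control 3. All 3 probes ranked the 6 livers in the same order, with sEV 2 highest, then sEV 3, Control 3, sEV 1, Control 2 and Control 1. None passed: the log2 fold changes were 0.37 ± 0.15 (adjusted p = 0.143) and 0.62 ± 0.23 (0.128) for the Lyz2 probes and 0.28 ± 0.16 (0.285) for Lyz1 (SE, limma). Without sEV 1 the second Lyz2 probe reached 0.84 (adjusted p = 0.0451).

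Neutrophils and their precursors also make lysozyme, and part of their markers were higher in sEV livers. Of 13 measured markers, 6 rose and 0 fell, beside 7.95% of all genes higher and 7.25% lower. The median log2 fold change of the 13 was 1.18 against 0.03 over all genes. Ctsg, a granule protease, rose by 2.09 ± 0.25 and Elane, neutrophil elastase, by 1.32 ± 0.17 (SE), and Mpo and Ngp, further granule genes, rose as well. Ly6g, a surface marker of mature neutrophils named after its values were seen, was at -0.07 (limma adjusted p = 0.795) with overlapping groups. Retnlg and Cxcr2, named likewise, overlapped too, at 0.57 and 0.84. The list's summed relative signal was 8411% to 14330% in sEV livers and 3064% to 5381% in Control livers, and all 13 were well above background on at least 4 arrays. Whether these cells contributed to the lysozyme or Ly6c values was not tested.

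Spn encodes sialophorin (CD43), a surface mucin of non-classical monocytes, T cells and other leukocytes. Its brighter probe was at 33.1%, 34.6% and 33.9% in sEV livers, against 33.5%, 32.2% and 34.9% in Control livers. Those values overlap fully, with a log2 fold change of 0.02 ± 0.08 (SE, limma adjusted p = 0.918) and an interval of -0.18 to 0.21. Its second probe was at 18.7%, 28.4% and 19.8% in sEV livers, against 11.1%, 15.2% and 11.2% in Control livers. Here the groups did not overlap, and the log2 fold change was 0.83 ± 0.20 (SE, limma adjusted p = 0.0440). The Spn probes thus disagree in size, although the design places them within 1 kilobase on chromosome 7, and the third stayed under the background mark on all 6 arrays. Leaving out any 1 array ended the call of the second probe, with adjusted p between 0.0521 and 0.133, as did slide row as a block (0.60, adjusted p = 0.288) and median scaling (0.77, 0.0609). Under normexp it was smaller, at 0.49 (adjusted p = 0.0281).

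T and NK cells carry CD43 as well. Of 7 measured T and NK markers 2 rose and 5 did not pass, beside 7.95% of all genes higher and 7.25% lower. Nkg7, a granule protein, rose by 1.29 ± 0.21 and Ncr1, an NK receptor, by 0.65 ± 0.14 (SE, limma). Among the 5 that did not pass, Cd4, which some macrophages also express, was at -0.48 (limma adjusted p = 0.0560) without overlap of the groups. Cd4 was named after its values were seen. The list's summed relative signal was 1524% to 1592% in sEV livers and 1689% to 2092% in Control livers. Cd4 was by far the brightest of the 7, with log2 means of 3.51 in sEV livers and 3.99 in Control livers. The lower sum therefore mainly follows Cd4, and 6 of the 7 markers had positive log2 fold changes. Cd3g, Cd8a and Klrb1c were not well above background on enough arrays to be measured. The part of these cells in the Spn values was not tested.

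Beside the 10 genes, other genes of the monocyte and macrophage lineage were counted by their brightest probe, against 7.95% of all 19447 genes higher and 7.25% lower. Of 11 further genes of classical monocytes, 5 rose and 1 fell, and the median was 0.51. S100a4, a calcium-binding protein, rose by 1.08 ± 0.18, Chil3, a chitinase-like protein, by 2.51 ± 0.43, Vcan, a proteoglycan, by 0.38 ± 0.08 and Hp, haptoglobin, which hepatocytes also secrete, by 0.55 ± 0.11 (SE). The 1 that fell was Itgam, the integrin CD11b (-0.79 ± 0.18, SE), named after its values were seen. Of 8 measured genes of non-classical monocytes, the class that Cx3cr1 marks, 3 rose, 0 fell and 5 did not pass. Among the 8, log2 fold changes were positive for 5 and negative for 3. The 3 that rose were Nr4a1, the nuclear receptor on which those monocytes depend (0.84 ± 0.16), Itgal, an integrin (0.52 ± 0.12), and Cd36, a fatty acid receptor that hepatocytes express too (1.40 ± 0.35, SE). In 8 transcription factors of the lineage 1 rose, Cebpb, by 0.69 ± 0.10 (SE), and 7 did not pass.

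Of 10 measured genes of recruited or activated macrophages 4 were called higher and 0 lower. Of the 4, 3 are Ms4a genes whose values are given above, with Ms4a4a past the filter on dim spots through the sEV arrays alone, and the other is Arg1, an arginase that hepatocytes express strongly (0.59 ± 0.12, SE). These Ms4a calls are no evidence beyond the values already given. Pan-macrophage genes rose in 6 of 10 cases and fell in 0, with a median of 0.49. Mpeg1, a pore-forming protein, rose by 1.15 ± 0.11, Cd14, a lipopolysaccharide co-receptor, by 1.93 ± 0.30, Ctss, a cathepsin, by 0.65 ± 0.10 and Laptm5, a lysosomal protein, by 0.48 ± 0.10 (SE). Kupffer cell markers rose in 8 of 14 cases and fell in 0, with a median of 0.60, led by Id3, a transcriptional regulator (1.09 ± 0.09), Il18bp, a decoy of interleukin 18 (0.64 ± 0.10), and the complement genes C1qa (0.74 ± 0.13) and C1qc (0.76 ± 0.13, SE). Their summed relative signal was 16767% to 18391% in sEV livers and 11877% to 15493% in Control livers. Of 7 measured dendritic cell markers 3 rose, all genes of class II antigen presentation, H2-Eb1 (1.52 ± 0.18), H2-Ab1 (1.29 ± 0.17) and their regulator Ciita (1.64 ± 0.32, SE). The other 4, named after their values were seen, did not pass. They were Cd209a (1.30), Zbtb46 (0.15), Clec9a (0.10) and Siglech (0.02). The dendritic list summed to 8552% to 13758% in sEV livers and 8395% to 9589% in Control livers, and Xcr1 was not measured. Siglech was the brightest gene in that sum, with log2 means of 6.19 in sEV livers and 6.18 in Control livers. The part of these cell types in the Ms4a7 and Ccr2 values was not tested.

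The remaining cell type lists set the scale, beside the same 7.95% of all genes higher and 7.25% lower. Hepatocyte markers rose in 3 of 7 cases, Cps1 and Ass1, enzymes of the urea cycle, by 0.85 ± 0.10 and 0.80 ± 0.11, and Hnf4a, a transcription factor, by 0.54 ± 0.10 (SE), and their sum was 258694% to 307799% in sEV livers against 226987% to 248381% in Control livers. Erythroid markers were called lower in 3 of 5 cases, among them Slc4a1, the red cell anion exchanger (-1.79 ± 0.31), and Epor, the erythropoietin receptor (-0.60 ± 0.15, SE). The other one, Ahsp, a haemoglobin chaperone, was well above background on 1 sEV array and 3 Control arrays. Its log2 signal was -4.38, -4.26 and -3.18 in sEV livers, against -0.69, -0.20 and -0.17 in Control livers. The erythroid sum was 583% to 1028% in sEV livers against 1213% to 1579% in Control livers. B and plasma cell markers were called lower in 3 of 4 cases, among them Cd79b, a signalling chain of the B cell receptor (-1.02 ± 0.20, SE). Ms4a1 is another, and it passed the filter through the Control arrays alone, while Jchain, the joining chain of secreted antibodies, rose by 0.72 ± 0.17 (SE). Their sum was 92.7% to 111% in sEV livers and 118% to 140% in Control livers.

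**Figure D5:**
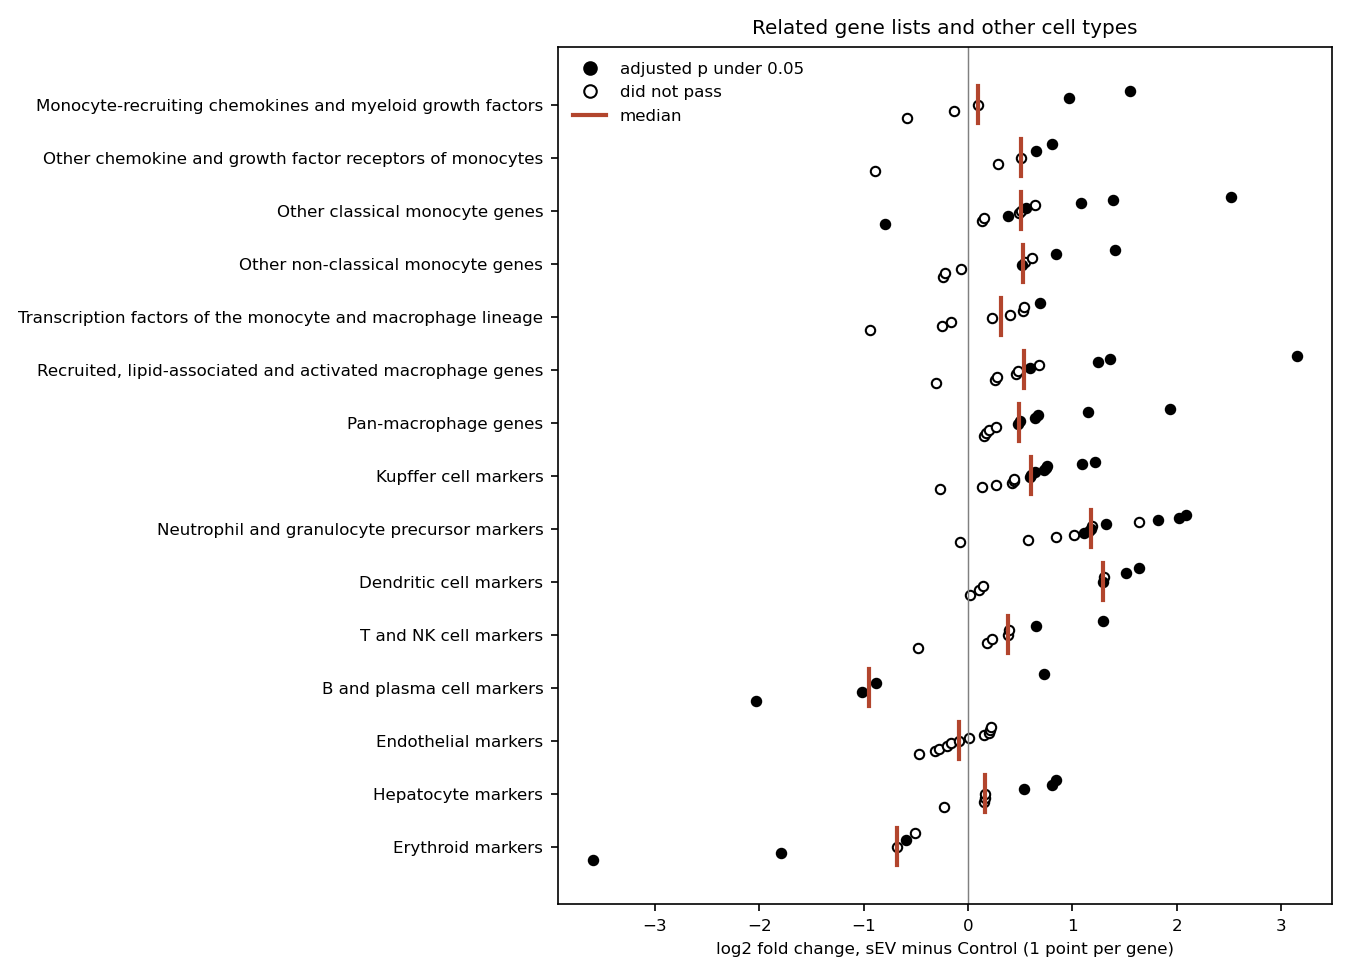
Log2 fold change, sEV minus Control, of each measured gene of the related lists and of other cell types, 1 point per gene by its brightest probe, filled where the adjusted p was under 0.05, with the list's median as a red bar. Macrophage, Kupffer cell and neutrophil genes lie mostly right of 0, endothelial markers lie around 0, and erythroid markers lie left of 0.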

How the data were processed

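Liver RNA of nude mice, 6 samples, was hybridised in 1 colour (Cy3), 1 sample per array, per the labels' protocols. The deposited scanner files hold intensity, which per the file headers had background subtracted and spatial trends removed within the array. Scanning software was Agilent Feature Extraction, version 10.7.1.1, as the submitters' processing notes name it. A deposited value table on the log2 scale has columns of nearly equal median (4.51), and its normalization was not stated.

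Each processed signal was divided by its array's 75th percentile and log2 transformed. Spots of controls and those with outlier flags (91 to 171 an array) were dropped, 0 spots were saturated, and repeated spots of a probe were averaged. Probes that the scanner called well above background in 3 or more of the 6 livers were fitted with limma 3.58.1 in R 4.3.3, using group alone, and p-values were adjusted by Benjamini-Hochberg over 28766 probes. Each list gene is read by its brightest kept probe in that fit. Accessions of 17 of 18 member probes matched RefSeq, all with the same symbol. The number of arrays limits the precision. The fit was tested on simulated data, where 8% of 1.5-fold and 56.8% of 2-fold changes were called. A gene that did not pass is therefore not shown to be unchanged.

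Members, lists and tests were chosen with earlier results of these data known. Named list genes are up to 4 past the threshold by size of moderated t, otherwise the 2 highest and 2 lowest. Some list genes are not reported here. Ligands of member receptors, the Ms4a family and single genes marked as such are outside that rule. Alternatives changed background correction, scaling, dim-probe filter, probes per gene, value table, replicate and slide row blocks, and left out each array. Figures used matplotlib 3.10.9.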

Additional observations from a re-analysis of the deposited data

How the results depend on the processing

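Across 16 alternatives, Cx3cr1 stayed lower and Ms4a7 higher past the threshold on every probe in each alternative that fitted it, with log2 fold changes of -2.42 to -1.88 on the brighter Cx3cr1 probe and 0.71 to 1.71 on the dimmer Ms4a7 probe. Of 250 values of the 16 member probes, 208 kept direction and side of the threshold, 36 lost the call, 1 gained it and 5 changed sign. The 5 were all of the brighter Spn probe, at -0.0390 under median scaling, -0.0170 with slide row as a block, -0.0170 within slide row 1, and -0.0139 to 0.0451 when 1 array was left out, being below 0 without sEV 2 (-0.000721) and without Control 2. Calls numbered 4041 over all probes, 9 over member probes and 53 over list genes. They were 950, 4 and 11 with no filter on dim probes, where 56605 probes were adjusted together, 836, 4 and 10 with slide row as a block, and 704, 4 and 15 within slide row 1, where 1 sEV array stands against the spread of the Control arrays. With 1 probe per gene 5 of 10 member probes passed, 2 higher and 3 lower, beside 3296 of all 19447 genes. Leaving out 1 array gave 1502 to 3229, 5 to 9 and 17 to 46, with fewer samples in each fit. Of all calls 53.6% were higher, against 41.0% under median scaling and 37.9% with no filter.

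Same-numbered sEV and Control samples had deviations from their group means that correlated at 0.05, 0.16 and 0.003, not over 0.1 for each, so the numbers were not taken as pairs. With replicate number as a block, 2534 probes passed, and 8 member probes, where Ccr2 was lost (adjusted p = 0.0808). The slide row cannot be told apart from the group for sEV 2 and sEV 3. Ccr2, the Adgre1 and Spn probes that were not measured, and other dim probes are limited by signal over background.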
